A study of Sus scrofa with 85 samples.

Results

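The genes described here are 130 of the 31907 genes counted in swine heart and blood that were abundant in heart biopsies taken before infarction and scarce in blood. They were chosen from the measured values. Over 4 baseline heart libraries and 12 blood libraries, the mean of log2(CPM + 1), where CPM is a gene's count scaled to a library total of 1000000, had to be above 7 in baseline heart and at least 4 higher there than in blood. Of the genes that met this, 18 were left out because their Spearman correlation over heart libraries with the mean of 5 fibrillar and related collagen genes (COL1A1, COL3A1, COL1A2, COL5A1 and COL6A3) was 0.6 or above, and the remaining 130 were all kept, since a limit of 150 was not reached. Of the 130, 9 have a gene identifier and no symbol. Just inside the limit on the heart and blood difference were TANC1 at 4.03 and KIF1C at 4.04, and just outside were 2 unnamed genes at 3.98 and 3.995. Just inside the limit on the collagen correlation were NID1 at 0.53 and LAMB1 at 0.51, and just outside were IGFBP5 at 0.61 and SERPINH1 at 0.66.

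RNA was sequenced from micro-endomyocardial biopsies, minute pieces of left ventricular wall taken by catheter, and from blood of 3 swine in which a balloon closed the distal left anterior descending artery before reperfusion. Of 85 libraries, 62 were heart and 23 blood, and 45 heart and 12 blood libraries were usable by the rule applied here, which asks for at least 1000000 counts and for the 10 top genes to hold 7 to 60% of them. The usable heart libraries were 4 at baseline, taken before occlusion from no set region. From the infarcted apical region there were 5 at 0-1 h, during occlusion, 9 at 1-3 h, once the balloon was deflated, 4 at 2 days and 7 at 14 days. From the non-infarcted lateral region there were 3, 3, 4 and 6 at the same times. Hours count from balloon inflation and not from reperfusion. The heart groups came from the same 3 swine (1640, 1644 and 5385), except that no usable non-infarcted library at 1-3 h was from 1640. No swine without infarction was sampled, and the usable blood libraries were 1 at baseline, 2 at 1-3 h, 4 at 2 days and 5 at 14 days. Several biopsies of a group came from 1 animal, so p-values measure the spread between biopsies rather than between animals.

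Heart muscle cells are packed with sarcomeres, in which myosin thick filaments pull on actin thin filaments when calcium released through the ryanodine receptor binds troponin. Creatine kinase and mitochondrial carriers keep up the supply of ATP, and desmosomes, dystrophin and integrins tie the cells to each other and to a laminin and collagen IV basement membrane. Capillaries and their pericytes run beside nearly every muscle fibre, and oxygen lack is a classical stimulus of the growth factor VEGFA, which acts on endothelial cells through KDR.

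The 130 genes were not all muscle genes. By known function 15 belonged to the contractile apparatus, 13 to excitation, calcium handling and cell junctions, 9 to energy metabolism and protein upkeep, 16 to basement membrane and matrix, 19 to vessel wall and growth factor signals, 23 to adhesion, caveolae and actin regulation and 13 to transcription and RNA regulation, while 22 were unnamed or of other function. MYH6, the alpha heavy chain of cardiac myosin, came first by the rule's measure, which is not scaled to gene length, with a baseline level of 12.55 against 4.77 in blood on the log2(CPM + 1) scale. COL4A1, a chain of basement membrane collagen IV, stood at 11.30 against 2.26, RYR2, the ryanodine receptor, at 11.27 against 5.41, and HSPG2, the basement membrane proteoglycan perlecan, at 11.11 against 3.68. TNNT2, cardiac troponin T, stood at 9.78 against 2.48. These differences are what the rule selected on, and "heart-restricted" holds against blood only. The gene paired here with the symbol MYH6 lies where the RefSeq annotation places MYH7, and reads of these near-identical myosins could have been divided between them, so its level is given under the symbol of the gene table.

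Libraries with fibrous content stood apart and touch most results that follow. The study set aside heart biopsies of high collagen expression that separated in a principal component analysis. Here 6 of the 45 usable libraries lay above 25 on the second component and are called fibrous for that position, 1 each at baseline and in the infarcted region at 0-1 h, 1-3 h, 2 days and 14 days and 1 in the non-infarcted region at 1-3 h. The members held 5.34 to 16.7% of the counts in the other 39 libraries, with a median of 12.1%, and 2.49 to 4.89% in the 6 fibrous ones. In blood they held 0.0771 to 0.529%, and in the 17 heart libraries that were not usable 0.243 to 4.94%. The contractile members held 1.69 to 9.30% in the 39 libraries and 0.0462 to 0.235% in the fibrous ones, close to the 0.0167 to 0.0373% of blood. The summed share of the basement membrane members did not follow them, with medians of 0.932% in the 39 and 1.18% in the 6 libraries. Their mean log2 level, which weighs each gene alike, was 7.65 to 8.55 in the 6 and 7.13 to 9.21 in the 39. Each fibrous library was at or next to the lowest of its group. The contractile mean level was 3.17 to 6.10 against 8.88 to 11.68. Genes that followed the collagens over these libraries had been left out by the rule, which limits what the basement membrane members can show. Fibroblast and matrix markers held 0.265 to 4.11% in the 39 libraries and 2.31 to 10.3% in the 6 fibrous ones. The mean level of the 5 collagen genes that the rule used ran from 11.93 to 13.98 in the 6 libraries and reached 12.46 in the others, so that low contractile counts separate these libraries and collagen alone does not. The baseline library of swine 1644 was among the fibrous ones and entered the baseline mean that chose the genes. That swine had no other usable baseline library. Swine 5385 had no usable infarcted library at 2 days except its fibrous one. Results at 2 days in the infarcted region without the fibrous libraries thus compare groups of unlike animals. In bulk tissue, fewer cells of a type and less RNA per cell cannot be told apart.

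**Figure D1:**
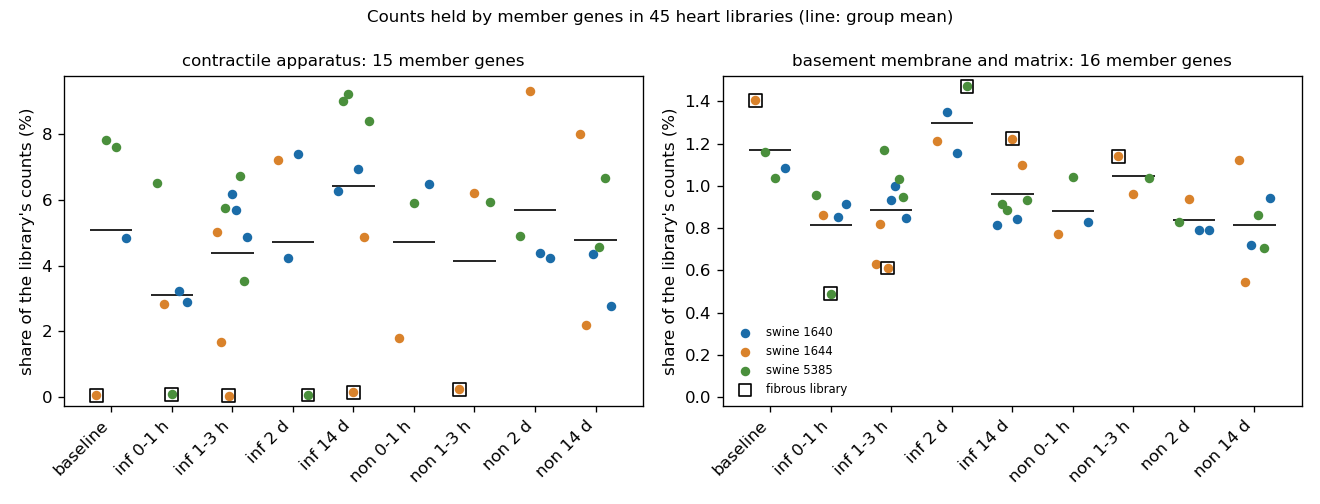
Share of each library's counts (%) held by the 15 contractile members (left) and the 16 basement membrane and matrix members (right) in the 45 usable heart libraries, grouped by region and time ("inf", infarcted; "non", non-infarcted), with points coloured by swine, squares around the 6 fibrous libraries and a line at the group mean. Contractile shares of the fibrous libraries lie at 0.0462 to 0.235%, whereas their basement membrane shares lie among those of the other libraries. The rule had left out genes that followed the collagens over these libraries.

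With all usable libraries, the share held by all 130 genes followed no order in time that exceeded the spread between biopsies. It was 11.2% ± 4.59 (SD, n = 4) at baseline. In the infarcted region it was 8.37% ± 4.07 (n = 5) at 0-1 h, 9.80% ± 3.42 (n = 9) at 1-3 h, 10.3% ± 5.07 (n = 4) at 2 days and 12.7% ± 4.46 (n = 7) at 14 days. In the non-infarcted region it was 10.4% ± 3.97 (n = 3), 9.62% ± 5.24 (n = 3), 12.2% ± 3.14 (n = 4) and 10.3% ± 3.19 (n = 6) at the same times. The widest gap between group means, from 8.37 to 12.7%, is about as large as the SDs within those groups, and no test was made of this sum over chosen genes.

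Levels of single members are given from here on as log2 CPM after TMM normalization. Within groups the SD of a member had a median of 0.85 and a range of 0.40 to 3.01, against a median range of 1.27 over the 9 group means. The steadiest members over the 9 groups were TEAD1, a transcription factor of the Hippo pathway, whose group means spanned 0.40, DST, a cytoskeletal linker, at 0.45, and CDC42BPB, an actin-regulating kinase, at 0.53. The widest spans were those of the unnamed gene ENSSSCG00000038561 at 2.64, RYR2 at 2.55 and TNNT2 at 2.54. Leaving out the fibrous libraries, the RYR2 group means ran from 12.18 to 13.11. At baseline TNNT2 was 1.21 in the fibrous library of swine 1644 and 13.27, 12.83 and 11.57 in the other 3, and at 2 days in the infarcted region it was 12.64, 11.62, 12.12 and, in the fibrous library of swine 5385, 4.99. Without the fibrous libraries the TNNT2 group means ran from 11.54 to 12.55. Of the 130 members, 54 had their highest group mean in the non-infarcted region at 2 days, a group with no fibrous library. The non-infarcted groups at 0-1 h and 14 days, also without one, were highest for 11 and 0. Baseline, whose levels chose the genes, was highest for 22, and the infarcted region at 1-3 h for 18. The lowest mean was in the infarcted region at 2 days for 32 and in the non-infarcted region at 14 days for 23.

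**Figure D2:**
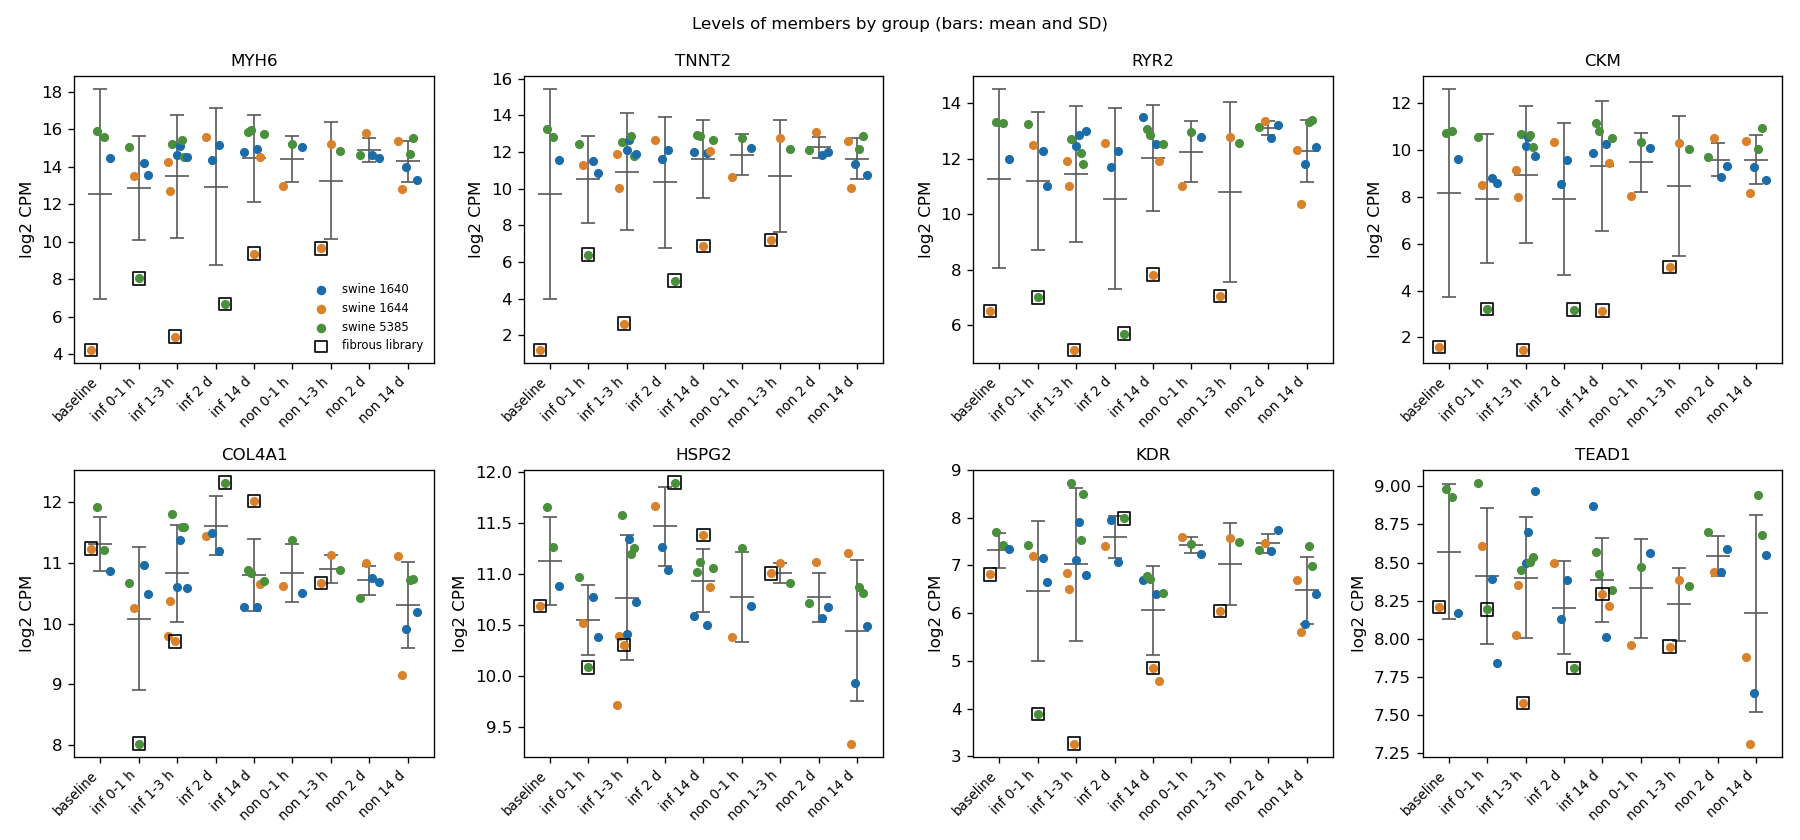
Levels (log2 CPM) of 8 members in each usable heart library by group ("inf", infarcted; "non", non-infarcted; h, hours; d, days), coloured by swine, with fibrous libraries in squares and bars for the group mean and SD. MYH6, TNNT2, RYR2 and CKM fall far below the group in the fibrous libraries, COL4A1 and HSPG2 mostly do not, and TEAD1 spans 0.40 over its group means.

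Comparisons were made against 14 days, whose levels the rule used only in the collagen correlation, and those of 1 region share the same 14 day libraries. In the infarcted region at 1-3 h, VEGFA, AKAP12 and WWTR1 were higher than at 14 days and DLC1 and CD34 were lower, by 0.92 to 1.61 on the log2 scale in either direction, and no other member passed the test. All 5 calls were lost when counts were summed per swine, where 0 of all genes passed, and when every library over 1000000 counts entered, where 69 genes and 0 members passed. That is 5 of 130 members at an adjusted p of 0.05 or less in edgeR, beside 931 of 17929 genes tested, which is 5.19%. The 3 that rose stand beside 3.11% of all genes and the 2 that fell beside 2.09%. At an unadjusted p under 0.05 the counts were 20 of 130 members and 19.4% of all genes. The members' median log2 fold change was -0.14 and that of all genes 0.09, with 55 members higher and 75 lower. A share of members near that of all genes is not a result about the members as a set. At 1-3 h replicates 2 and 7 had 20060 and 19682 genes at a CPM of 1 or more, against 13043 to 15809 in the other usable ones. At 14 days replicate 6 had 18932, against 13665 to 15991 in the other usable ones. The part of these libraries in the changes was not tested.

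The windows from 250 bases before to 50 bases after the RefSeq gene start of 4 of the genes that passed are printed because these are members with a tested change. They were read from the Sscrofa11.1 genome, 5′ to 3′ on the strand of the gene, and capitals mark 2 motifs searched on both strands. These are ACGTG, a form of the core of the hypoxia response element, and CATTCC, the MCAT element that TEAD factors bind. The other form of that core, GCGTG, was not searched. The genes that passed are VEGFA (ENSSSCG00000001695), AKAP12 (ENSSSCG00000031733), WWTR1 (ENSSSCG00000011704), DLC1 (ENSSSCG00000006970) and CD34 (ENSSSCG00000039946). VEGFA is at chr7:38746143-38746442 on the plus strand, AKAP12 at chr1:15016967-15017266 and WWTR1 at chr13:89889498-89889797 on the minus strand, and CD34 at chr9:134912543-134912842 on the plus strand.
VEGFA: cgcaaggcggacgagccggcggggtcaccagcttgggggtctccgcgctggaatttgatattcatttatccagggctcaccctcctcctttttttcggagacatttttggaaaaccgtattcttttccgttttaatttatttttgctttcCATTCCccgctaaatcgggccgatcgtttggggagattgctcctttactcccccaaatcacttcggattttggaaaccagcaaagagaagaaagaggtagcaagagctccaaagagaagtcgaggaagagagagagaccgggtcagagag
AKAP12: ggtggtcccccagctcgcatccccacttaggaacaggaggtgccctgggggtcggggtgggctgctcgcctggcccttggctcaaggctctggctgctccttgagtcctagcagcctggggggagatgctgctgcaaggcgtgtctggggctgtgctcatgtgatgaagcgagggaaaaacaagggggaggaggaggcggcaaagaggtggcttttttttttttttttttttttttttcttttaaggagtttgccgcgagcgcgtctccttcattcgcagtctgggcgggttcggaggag
WWTR1: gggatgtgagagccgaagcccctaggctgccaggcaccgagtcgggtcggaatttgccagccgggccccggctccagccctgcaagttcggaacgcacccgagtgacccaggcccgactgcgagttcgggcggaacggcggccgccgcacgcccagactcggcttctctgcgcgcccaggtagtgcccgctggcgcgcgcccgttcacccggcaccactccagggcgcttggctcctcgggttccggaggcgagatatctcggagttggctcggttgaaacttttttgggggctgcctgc
CD34: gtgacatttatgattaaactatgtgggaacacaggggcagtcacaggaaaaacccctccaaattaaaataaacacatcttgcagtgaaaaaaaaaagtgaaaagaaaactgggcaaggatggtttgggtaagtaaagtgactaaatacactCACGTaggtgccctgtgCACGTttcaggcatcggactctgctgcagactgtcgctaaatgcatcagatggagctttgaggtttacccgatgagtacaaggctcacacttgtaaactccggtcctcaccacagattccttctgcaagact
VEGFA held 1 CATTCC and no ACGTG, CD34 held 2 ACGTG, both on the opposite strand and so printed as CACGT, and the AKAP12 and WWTR1 windows held neither motif. ACGTG was in 25 of the member windows read (21.6%) and 4348 of 19531 windows of all genes (22.3%), and CATTCC in 15 (12.9%) and 2312 (11.8%). A match is a run of letters and not a measured binding site.

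VEGFA, the vascular endothelial growth factor, ran from 7.80 through a median of 8.72 to 9.92 at 1-3 h and from 6.07 through 7.27 to 8.13 at 14 days in the infarcted region. The groups overlap, with 7 of the 9 early libraries above every late one. Its log2 fold change was 1.55 (SE 0.44, edgeR adjusted p = 0.0353), and by swine the difference was 1.47, 1.65 and 1.38 in 1640, 1644 and 5385. Elsewhere its means were 7.92 ± 0.83 (n = 4) at baseline, 7.38 ± 1.41 (n = 5) at 0-1 h and 6.70 ± 1.07 (n = 4) at 2 days in the infarcted region, and 7.13 to 8.04 over the 4 non-infarcted groups.

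AKAP12, a scaffold protein that anchors protein kinases at the membrane, ran from 8.36 through 9.12 to 10.79 at 1-3 h and from 6.99 through 7.74 to 9.00 at 14 days. Of the early libraries, 5 of 9 lay above every late one, and the highest late value was that of the fibrous library of swine 1644. Its log2 fold change was 1.61 (SE 0.45, edgeR adjusted p = 0.0329), with 2.26, 0.56 and 1.70 in the 3 swine. In the non-infarcted region its change at 1-3 h against 14 days was 1.62 (SE 0.47), from 3 libraries at 9.75, in the fibrous one, 9.07 and 8.02 against a range of 7.17 to 8.20. It did not pass (edgeR adjusted p = 0.119) and was 0.99 without the fibrous library. Whether the time course differed between regions was not tested.

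WWTR1, the transcriptional co-activator TAZ, which acts with TEAD factors, ran from 6.72 through 8.06 to 8.97 at 1-3 h and from 6.79 through 7.12 to 7.43 at 14 days. Of the early libraries, 7 of 9 lay above every late one, although the lowest of all was also early. The log2 fold change was 1.14 (SE 0.29, edgeR adjusted p = 0.0209), with 0.63, 0.77 and 1.43 in the 3 swine. Its paralogue YAP1 and the TEAD factor TEAD1, also members, did not pass with or without the fibrous libraries.

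DLC1, a GTPase-activating protein that switches off RhoA, ran from 7.88 through 9.09 to 10.25 at 1-3 h and from 9.22 through 9.96 to 10.77 at 14 days. Of the early libraries, 8 of 9 lay below every late one. The log2 fold change was -0.97 (SE 0.29, edgeR adjusted p = 0.0436), with -0.86, -0.98 and -1.18 in the 3 swine. CD34, a surface sialomucin of vascular endothelial cells and of interstitial cells, ran from 4.90 through 5.99 to 6.92 at 1-3 h and from 6.45 through 7.20 to 7.51 at 14 days. Of the early libraries, 5 of 9 lay below every late one. The log2 fold change was -0.92 (SE 0.28, edgeR adjusted p = 0.0486), with -0.88, -1.97 and -0.34 in the 3 swine, and without the fibrous libraries it was -0.80 (SE 0.27) and no longer passed (edgeR adjusted p = 0.0685).

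**Figure D3:**
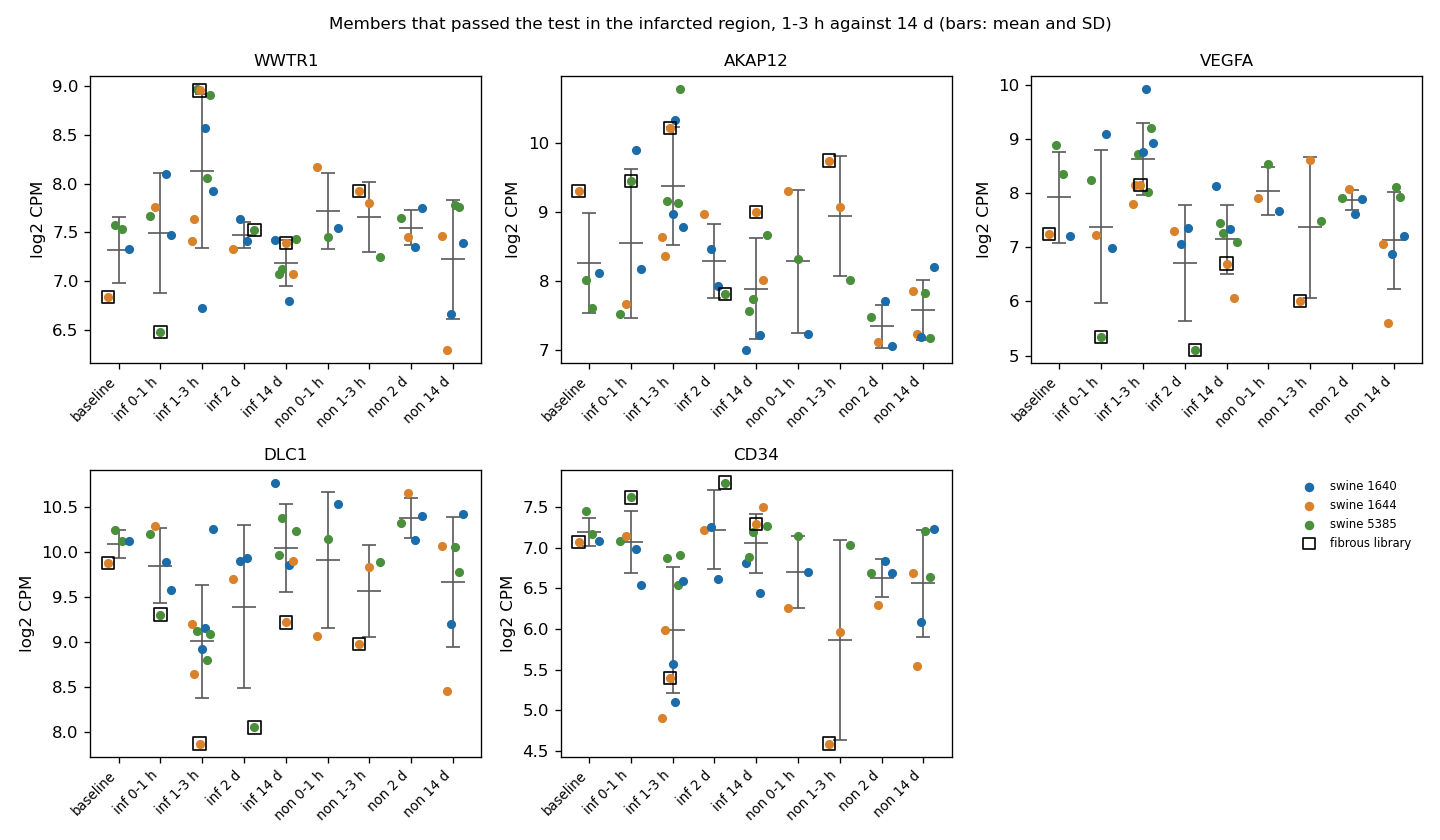
Levels (log2 CPM) of the 5 members that passed the edgeR test in the infarcted region at 1-3 h against 14 days, in each of the 45 usable heart libraries by group, coloured by swine, with fibrous libraries in squares and bars for mean and SD. At 1-3 h in the infarcted region VEGFA, AKAP12 and WWTR1 have medians of 8.72, 9.12 and 8.06 against 7.27, 7.74 and 7.12 at 14 days, and DLC1 and CD34 have medians of 9.09 and 5.99 against 9.96 and 7.20.

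The muscle genes themselves did not pass at 1-3 h. In the contractile apparatus 0 of 15 passed, 11 were lower and 4 higher, and the median log2 fold change was -0.27 with a median SE of 0.93, which was 0.36 without the fibrous libraries. A change of this size was not detectable at that error. In excitation, calcium and junctions 0 of 13 passed and the median was -0.30 (10 lower). In energy metabolism and protein upkeep 0 of 9 passed, with -0.28 (8 lower). The basement membrane genes had a median of 0.02 with a median SE of 0.32, 0 of 16 passing and 8 on each side. With the other scaling tried, DESeq2 size factors, the median of all genes moved from 0.09 to 0.16 and that of the contractile members to -0.18, with 5 higher and 10 lower.

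When the fibrous libraries were left out, 15 of 130 members passed at 1-3 h against 14 days beside 7.82% of 18089 genes. VEGFA (1.53, SE 0.38), AKAP12 (1.74, SE 0.43), WWTR1 (1.05, SE 0.26) and DLC1 (-0.96, SE 0.22) were among them. The further genes that rose were KDR, the VEGF receptor of endothelial cells (1.32, SE 0.35, edgeR adjusted p = 0.0215), KITLG, the ligand of the receptor KIT (1.27, SE 0.31), TANC1, a scaffold protein (0.84, SE 0.25), and the unnamed ENSSSCG00000044051 (0.91, SE 0.24). KDR at 1-3 h ran from 3.27, in the fibrous library, through a median of 7.12 to 8.74, and at 14 days from 4.59 through 6.41 to 6.79. Leaving out the fibrous value, 7 of the other 8 early libraries lay above every late one.

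The genes that fell without the fibrous libraries included muscle genes. They were NEBL, the Z-disc nebulin relative nebulette (-1.17, SE 0.31), SORBS2, a Z-disc and junction adaptor (-1.17, SE 0.23, edgeR adjusted p = 0.00413), MYOCD, myocardin, the co-activator of muscle genes (-1.17, SE 0.30), PTGER3, the prostaglandin E receptor EP3 (-1.31, SE 0.28), PCDH7, a protocadherin (-1.16, SE 0.28), ZFPM2, the GATA4 cofactor FOG2 (-0.70, SE 0.18), and the unnamed ENSSSCG00000004207 (-0.89, SE 0.23). SORBS2 at 1-3 h had a median of 9.38 and a highest value of 10.17, against 10.61 and 11.21 at 14 days. MYOCD had a median of 6.59 and a highest value of 7.46 against 7.77 and 8.28. In both, every early library lay below the late median. These 15 genes were read after the libraries to leave out were known.

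**Figure D4:**
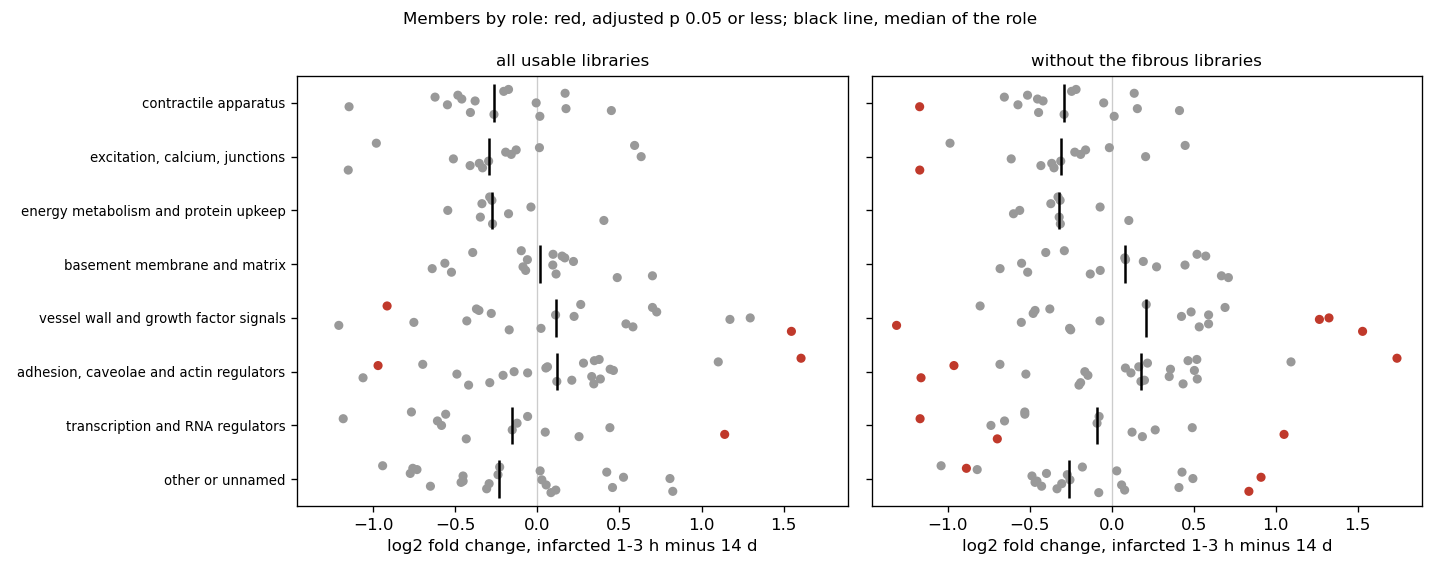
Log2 fold changes of the 130 members in the infarcted region, 1-3 h minus 14 days, by role, with all usable libraries (left) and without the fibrous ones (right); red points have an edgeR adjusted p of 0.05 or less and black lines are the medians of the roles. The count of red points is 5 on the left and 15 on the right, while the role medians stay between -0.32 and 0.21 on both sides.

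Wider lists of the same processes, in which members are counted too, were also read at 1-3 h against 14 days. The counts that passed stand beside the 5.19% of all genes, which is few genes in lists of this size. They are not a result about a list. Of 17 thick filament genes 0 passed, of 16 calcium handling genes 0, of 23 ion channel genes 0 and of 24 fatty acid oxidation genes 0. Of 29 thin filament and Z-disc genes 1 rose, the co-chaperone BAG3, and of 20 genes of creatine, oxygen and glycogen metabolism 2 rose, PDK4, which brakes glucose oxidation, and the hexokinase HK2. Of 34 cardiac transcription factors and regulators 1 fell, TBX5. Of 63 nuclear-encoded genes of the TCA cycle and respiratory chain 54 were lower, with a median of -0.26, and all 13 mitochondrially encoded genes were higher, with a median of 0.47, but 0 of either passed. Of 13 endothelial markers 1 rose, CLDN5, a tight junction protein, with 11 higher and a median of 0.49. The summed endothelial markers, CDH5 and KDR among them, held 0.0396 to 0.265% of counts at 1-3 h (median 0.155%) and 0.0599 to 0.141% at 14 days (median 0.113%), and their part in the levels of VEGFA, KDR and CD34 was not tested. Leukocyte markers held 0.0149 to 0.0682% (median 0.0305%) and 0.0172 to 0.0395% (median 0.0270%).

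At 0-1 h, during occlusion, no member passed against 14 days in the infarcted region by edgeR, DESeq2 or limma, beside 0.0% of all genes in edgeR, and 3 of 130 members were at an unadjusted p under 0.05 beside 3.33% of all genes. Under both scalings, with and without the fibrous libraries, all 15 contractile and all 9 metabolic (energy metabolism and protein upkeep) members had lower means. Their median log2 fold changes were -0.84 and -0.98 with all usable libraries and -0.75 and -0.93 without the fibrous ones, beside -0.0050 and -0.00039 for all genes. Without the fibrous libraries 23 of 130 members (17.7%) were at an unadjusted p under 0.05 beside 5.38% of all genes, and the lowest adjusted p was 0.244 in edgeR, so none passed. Over the 39 non-fibrous libraries the mean levels of the contractile and the metabolic members had a Pearson correlation of 0.96. These counts are therefore not of independent genes.

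MYL2, the ventricular regulatory light chain of myosin, stood at 11.33, 9.49, 10.12 and 9.49 at 0-1 h and at 2.98 in the fibrous library. At 14 days it was 10.79, 12.04, 12.22, 11.25, 9.90 and 11.91, and 3.85 in the fibrous library. The groups overlap, with 2 of the 4 non-fibrous early libraries below all 6 late ones, and the log2 fold change was -1.23 (SE 0.53) without and -1.31 (SE 1.21) with the fibrous libraries. CKM, muscle creatine kinase, was 10.55, 8.52, 8.80 and 8.58 at 0-1 h, so that 1 library of swine 5385 stood near the late values and the other 3 lay below the late minimum of 9.44 outside the fibrous library. HSPB6, a small heat shock protein of muscle, had the largest fall of the means, -1.42 (SE 0.74). MYH6 changed by -1.25 (SE 1.23) with and -1.17 (SE 0.51) without the fibrous libraries, and TNNC1, cardiac troponin C, by -1.09 (SE 0.46) without them. JAG1, a Notch ligand of vessels, moved the other way, with 1.21 (SE 0.30) without the fibrous libraries and values of 6.78, 7.64, 6.65 and 8.48 against 5.99 to 6.67 outside the fibrous library at 14 days. DESeq2 without the fibrous libraries passed JAG1 and no other member. EHD2, an ATPase at the neck of caveolae, lay wholly above the 14 day libraries, as did 0.0948% of all genes, with 7.06, 7.17, 7.34, 7.27 and 7.61 against 6.34 to 6.98 and a log2 fold change of 0.59 (SE 0.27).

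At 2 days against 14 days in the infarcted region 0 of 130 members passed by edgeR, DESeq2 or limma, beside 0.00558% of all genes in edgeR, and 8 members were at an unadjusted p under 0.05 beside 3.02% of all genes. The largest changes were those of KDR, CDH5 and SAMD4A, and EHD2 had the smallest p. EHD2 was 7.54, 7.56, 7.18 and 8.08 at 2 days against 6.34 to 6.98 at 14 days, with a log2 fold change of 0.95 (SE 0.29, edgeR adjusted p = 0.857). KDR was 7.40, 7.95, 7.08 and 7.99 against 4.59 to 6.79, with 1.41 (SE 0.58). Both genes lay wholly above the 14 day libraries, as did 0.625% of all genes. CDH5, the cadherin of endothelial junctions, was 1.33 (SE 0.53) higher in the means with overlapping groups, and SAMD4A, an RNA-binding repressor of translation, lay wholly below at 7.23 to 9.09 against 9.29 to 11.15, as did 0.268% of all genes. Its change was -1.32 (SE 0.50). With the fibrous libraries left out EHD2 was 0.69 (SE 0.29), KDR 1.10 (SE 0.43), CDH5 0.62 (SE 0.37) and SAMD4A -1.11 (SE 0.47). This leaves no library of swine 5385 at 2 days, so time and animal are not separated there. Of the 16 basement membrane members 14 were higher, with a median of 0.22, and 15 of 15 contractile members were lower, with a median of -0.50 and a median SE of 1.19. Without the fibrous libraries 14 of the 15 were lower, with a median of -0.31, and ACTA1 was 0.13 higher (SE 0.62).

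The infarcted and non-infarcted regions were compared at each time in 1 fit. At 2 days 0 of 130 members passed by edgeR, DESeq2 or limma, beside 0.0% of all genes in edgeR, and 7 were at an unadjusted p under 0.05 beside 3.41% of all genes. Without regard to the test, 21 members lay lower in all 4 infarcted libraries than in any of the 4 non-infarcted ones, beside 3.73% of all genes tested, and 7 lay higher, beside 2.87%. Without the fibrous library the same 21 were lower, beside 4.24%, and 8 were higher, beside 3.92%. That leaves no infarcted library of swine 5385, which stays in the non-infarcted group, so region and animal are not separated there. The 21 included RYR2, DMD, MYH7B, CAMK2A, RCAN2, MYOCD, MLIP, VEGFA and SMAD6, and the 7 were COL4A1, LAMB1, AKAP12, CAVIN1, EHD2, NES and the unnamed ENSSSCG00000044051.

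RYR2 at 2 days was 12.56, 11.71, 12.27 and, in the fibrous library, 5.68 in the infarcted region, and 13.13, 13.36, 12.76 and 13.20 in the non-infarcted region. The 3 non-fibrous infarcted libraries thus lay close under the lowest non-infarcted one, and the log2 fold change was -1.33 (SE 1.12) with and -0.92 (SE 0.56) without the fibrous library. DMD, dystrophin, was 11.08, 10.40, 11.15 and 7.30 against 11.62, 11.82, 11.35 and 11.39. VEGFA was 7.30, 7.06, 7.35 and 5.11 against 7.91, 8.07, 7.62 and 7.89, lower in every infarcted library, with a log2 fold change of -0.96 (SE 0.58).

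COL4A1 was 11.45, 11.49, 11.20 and 12.33 in the infarcted and 10.42, 10.99, 10.76 and 10.69 in the non-infarcted region at 2 days, with 0.95 (SE 0.49). AKAP12 was 8.98, 8.46, 7.92 and 7.80 against 7.47, 7.11, 7.71 and 7.06, and EHD2 was 7.54, 7.56, 7.18 and 8.08 against 7.04, 7.02, 6.85 and 7.03. In these 3 genes every infarcted library was above every non-infarcted one, the non-fibrous ones included. Fibroblast and matrix markers held 2.31 to 3.28% of counts in the infarcted libraries (median 2.65%) and 0.579 to 1.12% in the non-infarcted ones (median 0.721%) at 2 days, and their part in these differences was not tested. The members' median difference was -0.36 with 98 lower, beside -0.01 for all genes, and -0.10 with 84 lower without the fibrous library. The contractile median went from -0.44 to -0.05 and that of excitation, calcium and junction genes from -0.88 to -0.50.

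**Figure D5:**
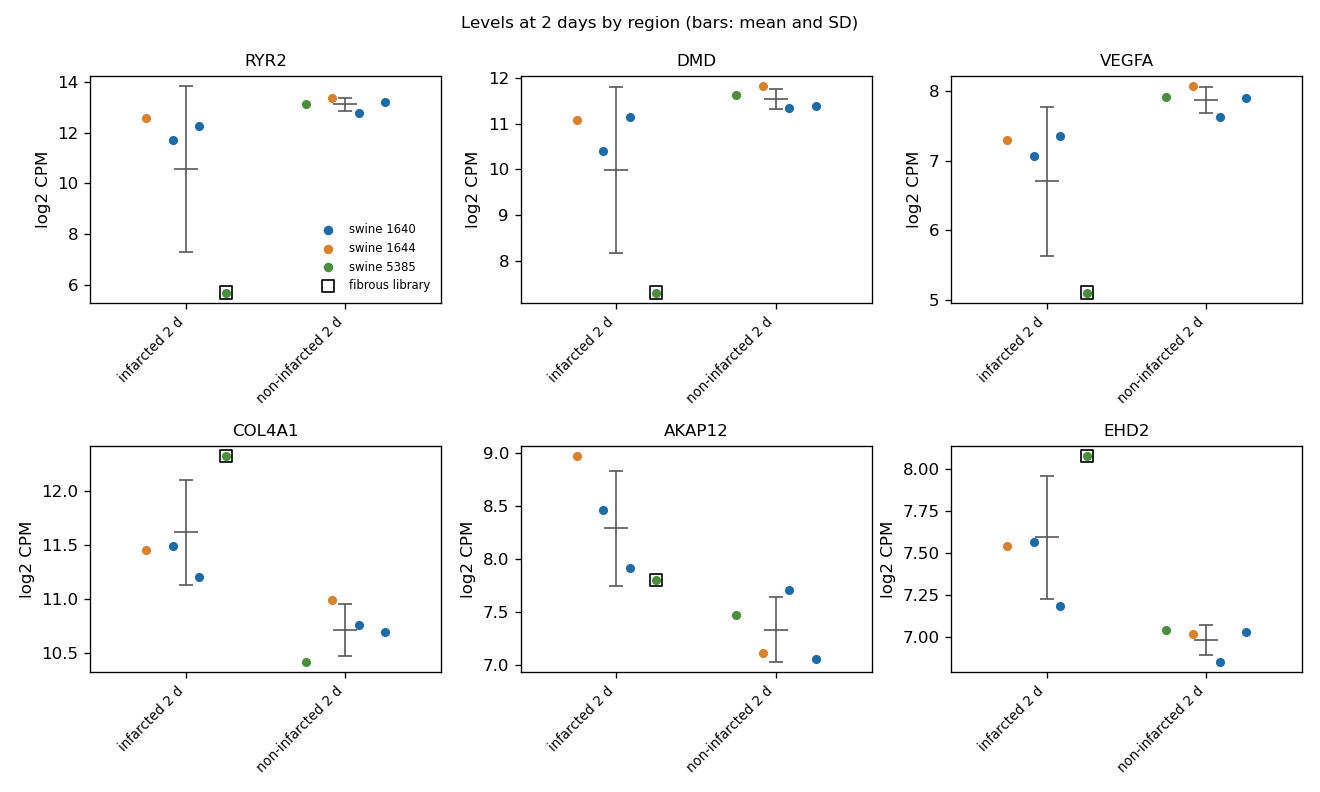
Levels (log2 CPM) of 6 members at 2 days in the 4 infarcted and 4 non-infarcted libraries, coloured by swine, with the fibrous library in a square and bars for mean and SD. RYR2, DMD and VEGFA are lower, and COL4A1, AKAP12 and EHD2 higher, in every infarcted library, and no member passed the edgeR test.

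At 14 days 0 of 130 members passed between the regions by edgeR, DESeq2 or limma, beside 0.0% of all genes in edgeR, and 4 were at an unadjusted p under 0.05 beside 5.31% of all genes. All 15 contractile members had higher means in the infarcted region under both scalings, with a median of 0.57 and, without the fibrous library, 0.79, where 22 of 130 members (16.9%) were at an unadjusted p under 0.05 beside 5.73% of all genes. The lowest adjusted p there was 0.6252 in edgeR. Members of these roles vary together over libraries, so these counts are not of independent genes. The same infarcted 14 day libraries were the reference at 0-1 h. Non-infarcted replicates 2 and 3 had 22076 and 20949 genes at a CPM of 1 or more, against 13975 to 15889 in the others. Infarcted replicate 6 had 18932, against 13665 to 15991 in the other usable infarcted ones. The part of these libraries in the difference was not tested. ACTC1, cardiac alpha-actin, ran from 4.96, in the fibrous library, through a median of 9.48 to 10.73 in the infarcted region, against 7.68 through 8.57 to 9.48. Apart from the fibrous library the groups overlap through 1 non-infarcted library, and the change was 1.04 (SE 0.98) with and 1.26 (SE 0.42) without the fibrous library. NES, nestin, an intermediate filament of young muscle and vessel cells, ran from 7.29 through 8.66 to 9.37 against 6.04 through 7.10 to 8.16, with 1.20 (SE 0.46). DES, desmin, the intermediate filament of muscle, had 0.91 (SE 0.94), and DPYSL3, a cytoskeletal protein, 0.78 (SE 0.29).

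Between the regions at 0-1 h and 1-3 h 0 members passed by any of the 3 tools, beside 0.0% and 0.0663% of all genes in edgeR, and 1 member at each time was at an unadjusted p under 0.05, beside 0.956% and 3.45% of all genes. At 0-1 h the largest differences were SEMA3C, a secreted semaphorin, at 1.16 (SE 0.56), ACTA1, skeletal alpha-actin, at -0.85 (SE 1.34), and MYH6 at -0.79 (SE 1.33), which without the 1 fibrous library were 0.19 (SE 0.37), -0.54 (SE 0.71) and -0.47 (SE 0.63). At 1-3 h they were NRAP, a sarcomere assembly protein, at 1.41 (SE 1.12), VEGFA at 1.07 (SE 0.58) and the unnamed ENSSSCG00000050772 at 0.99 (SE 0.39). Without the fibrous libraries, which leaves 2 in the non-infarcted region, these were 1.01 (SE 0.55), 0.70 (SE 0.55) and 0.61 (SE 0.35), the largest differences were PTGER3 at -1.40 (SE 0.44) and MYOCD at -1.37 (SE 0.44), and 7 members were at an unadjusted p under 0.05 with 0 passing. Without the fibrous libraries the median over the members went from -0.20 to -0.02 at 0-1 h and changed sign at 1-3 h, from 0.11 to -0.11.

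In the non-infarcted region 0 members passed against 14 days at any time by edgeR, DESeq2 or limma. All genes passed at 0.0%, 0.154% and 0.0% at 0-1 h, 1-3 h and 2 days, and 1, 7 and 3 members were at an unadjusted p under 0.05 beside 4.25%, 11.7% and 6.09% of all genes. Fewer members had lower means than at 14 days than had higher ones throughout, 14, 46 and 9 of 130, with medians of 0.27, 0.14 and 0.37 beside -0.10, -0.09 and -0.04 for all genes. At 14 days, replicates 2 (swine 1644) and 3 (swine 1640) had 22076 and 20949 genes at a CPM of 1 or more. The other 14 day libraries had 13975 to 15889. Member shares in replicates 2 and 3 were 5.34 and 9.18% against 9.21 to 14.5% in the others, and their part in these differences was not tested. With DESeq2 size factors the medians of all genes were -0.20, -0.26 and -0.16, and at 1-3 h 70 members were higher and 60 lower. Without the fibrous library at 1-3 h, which leaves 2 libraries, 15 members were lower, with a median of 0.42. At 1-3 h AKAP12, described above, had the smallest p, followed by CAVIN1, a coat protein of caveolae (0.95, SE 0.33, edgeR adjusted p = 0.212), and SAMD4A changed by 1.03 (SE 0.45). Without the fibrous library CAVIN1 was 0.39 (SE 0.30) and SAMD4A 1.16 (SE 0.43), and SAMD4A was 0.30 without the other library of swine 1644. At 0-1 h the largest changes were AKAP12 at 0.95 (SE 0.47), KDR at 0.87 (SE 0.36) and LAMA5, a laminin chain of vessels, at 0.80 (SE 0.47).

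At 2 days in the non-infarcted region 6 members lay wholly above the 14 day libraries, DMD, RCAN2, PTGER3, MEIS2, MYOCD and the unnamed ENSSSCG00000050772, beside 0.715% of all genes. PTGER3 was 9.94, 10.43, 9.45 and 9.75 against 7.61 to 9.44, with 1.16 (SE 0.65, edgeR adjusted p = 0.620). MYOCD was 8.61, 8.60, 8.21 and 8.22 against 6.28 to 8.12, with 0.92 (SE 0.77). In both genes the 4 libraries at 2 days lay closer together than the 6 at 14 days. DES had 1.13 (SE 0.95) with overlapping groups.

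Against baseline the changes are a description, because baseline levels chose the genes and its fibrous library enters every difference. In edgeR 0 of 130 members passed in any of the 8 comparisons, beside 1.62% of all genes for the infarcted region at 1-3 h and 0.0% for the other 7. In the infarcted region 31, 49, 28 and 52 members were higher than at baseline at 0-1 h, 1-3 h, 2 days and 14 days and the rest lower, and in the non-infarcted region 50, 32, 66 and 11 were higher.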

How the data were processed

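The authors mapped reads of stranded total RNA libraries to Sscrofa11.1 with STAR and assigned them to genes with featureCounts; versions are not given in the sources used here, and the columns carry the tag s0, which may mark counting without strand, so overlapping and antisense genes are uncertain. The deposited values are raw counts per gene, and symbols come from a gene table. Usable heart libraries held 3499443 to 16659110 counts (median 7761052). Counts were fitted with edgeR 4.0.16 (quasi-likelihood test, TMM) in R 4.3.3 on genes that reached a CPM of 1 in 20% of libraries or more, with Benjamini-Hochberg adjustment over all genes tested and a threshold of 0.05. The infarcted fit (29 libraries, 17929 genes) and non-infarcted fit (20, 18185) had timepoint as the term and shared the baseline libraries, and regions were compared in 1 fit (45, 18097). All 130 members passed the filter. Levels are log2 CPM with a prior count of 2.

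Alternatives were DESeq2 1.42.0, limma-voom 3.58.1, DESeq2 size factors, no filter, swine as a block, counts summed per swine, all libraries over 1000000 counts, both regions in 1 fit, leaving out the fibrous libraries (component 2 above 25, 500 genes), and leaving out each replicate. Libraries of a swine come from the same animal, and deviations from group means correlated at 0.103 within and -0.0465 between swine. The edgeR script was tested on simulated data. A promoter window of 1 gene is not reported here. The members, roles and gene lists were chosen with earlier results of these data known. Named genes are the 20 highest at baseline, up to 5 members a direction that passed in a comparison or, where none did, the 3 with the largest change, the 4 highest of each list, those nearest the limits, and the 3 widest and 3 narrowest in group means. Other genes named beside a result, with the 15 that passed without the fibrous libraries and those in groups that did not overlap, were chosen after their values were seen.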

Additional observations from a re-analysis of the deposited data

Results flagged for a closer look

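Of 105 sets of 4 to 10 libraries examined, 27 held a library whose gap to the nearest of the others exceeded Dixon's critical value, which chance does in about 1 set in 20. Of these, 25 were in fibrous libraries. In the infarcted region at 14 days the fibrous library had a member share of 3.37%, and at 0-1 h a basement membrane share of 0.489%. TNNT2 stood lowest at 1.21 at baseline and, in the infarcted region, at 6.41 (0-1 h), 2.65 (1-3 h), 4.99 (2 days) and 6.87 (14 days). MYH6 stood lowest in the same libraries at 4.24, 8.05, 4.95, 6.69 and 9.37. RYR2 was 5.10 at 1-3 h, 5.68 at 2 days and 7.82 at 14 days, and DMD was 7.39 at 1-3 h and 7.80 at 14 days. CKM was 1.58 at baseline, then 3.21 (0-1 h), 1.47 (1-3 h) and 3.15 (14 days). At 2 days VEGFA was 5.11 and DLC1 8.06. COL4A1 was lowest of its group at 8.02 at 0-1 h and highest at 12.02 at 14 days, in fibrous libraries both times.

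The remaining 2 were in 1 library, of swine 1644 in the non-infarcted region at 2 days, whose contractile share of 9.30% and MYH6 level of 15.81 were the highest of the group.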

How the results depend on the processing

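In the infarcted region at 1-3 h against 14 days, 5 members passed. The count was 10 with DESeq2, 3 without a filter on low counts, 0 with counts summed per swine, 0 with all libraries over 1000000 counts, 15 without the fibrous libraries, and, both added after seeing the data, 26 with DESeq2 and 19 with swine as a block without those libraries. It stayed at 5 with limma-voom, with DESeq2 size factors and with swine as the block, in which 5 members passed, and was 6 with both regions in 1 fit. Over all genes these settings passed 931, 1956, 739, 0, 69, 1415, 2364, 1555, 794, 1083, 863 and 1322. VEGFA, AKAP12 and WWTR1 kept direction and side of the threshold in 9 of 11 alternatives, DLC1 in 8 and CD34 in 7. No replicate was left out here, since the groups hold 9 and 7 libraries.

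In the other 9 tested comparisons 0 members passed with every setting except 2: 1 at 0-1 h in the infarcted region with DESeq2 without the fibrous libraries (JAG1), and 1 at 1-3 h in the non-infarcted region without its replicate 6 (AKAP12, 1.93; 909 genes in all), so that leaving out replicates there gave 0 to 1. The block by swine changed no other call. The 32 fold changes recomputed, those of members that passed or had the largest changes in a comparison, kept their direction in every alternative but not always their size. In the non-infarcted region the lowest values were 0.03 for CAVIN1 and 0.17 for SAMD4A at 1-3 h, and 0.24 for AKAP12 at 0-1 h. Between regions at 0-1 h SEMA3C fell to 0.14. Other members did not keep their direction: without the fibrous libraries ACTA1 changed by 0.13 at 2 days against 14 days in the infarcted region, where it was lower with them. Contractile members carry SEs near 1 where fibrous libraries are kept, which limits what those comparisons can show.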
